A study of Mus musculus with 2 samples.

Results

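The genes described here are 10 genes of neutrophil and monocyte development: Elane, Prtn3, Ctsg, Mpo, Ms4a3, Cebpe, Irf8, Ly86, S100a8 and S100a9. They were chosen by name from a list of granule and lineage genes, and they are 10 of the 22652 genes with at least 1 UMI in either library (UMI, unique molecular identifier; each UMI stands for 1 captured transcript molecule). Single cells of lineage-depleted femoral bone marrow from C57BL/6 mouse embryos at E18.5 were profiled by BD Rhapsody whole-transcriptome sequencing, a microwell method, with 1 library from WT embryos and 1 from Bmx-CreER Wls embryos. The second genotype combines a tamoxifen-inducible Cre under the Bmx promoter (Bmx-CreERT2), which is active in arterial endothelial cells, with the floxed Wls allele Wls tm1.1Lan, and the pregnant dams received tamoxifen. It removes Wls, a protein that cells need to secrete Wnt ligands, from arterial endothelial cells, so the haematopoietic cells described here are not the cells the Cre targets. Neither a tamoxifen treatment nor a litter is stated for the WT library, and the number of embryos pooled is not stated for either. The lineage panel of the study holds Ter119, Gr-1, B220 and CD3e. Gr-1 is carried by neutrophils and by part of the monocytes, so the depletion removes the cells in which S100a8 and S100a9 are usually most abundant.

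Neutrophils and monocytes arise from a shared granulocyte-monocyte progenitor. During the promyelocyte stage the neutrophil branch fills its primary granules with serine proteases and myeloperoxidase, and it makes the proteins of the later granules and the S100 proteins of the cytosol only afterwards. The transcription factor Cebpe drives that later neutrophil programme, whereas Irf8 directs progenitors toward monocytes and dendritic cells and restrains the neutrophil branch.

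The WT library held 5998 cell barcodes and 22708005 UMIs, and the Bmx-CreER Wls library (Wls library below) held 6825 barcodes and 24704991 UMIs. A filter on detected genes (over 200, under 5000) and on mitochondrial UMIs (under 30%) left 5736 WT cells with a median of 3128 UMIs and 6620 Wls cells with a median of 3067. The libraries shared 49 barcodes, of which 48 passed the filter and 0 lay in the multipotent progenitor clusters used to compare the libraries. Levels are given as CPM, a gene's UMIs scaled to 1000000 UMIs of the cells in question; a UMI counts 1 molecule whatever the transcript length, so CPM levels of different genes were set side by side without a length correction. With 1 library per genotype there were no replicates, no test between genotypes was possible, and the 95% intervals (exact Poisson for levels, Clopper-Pearson for shares, conditional binomial for ratios) cover counting error only.

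The targeted gene was lower in the Wls library in the cells that the Cre targets. Wls stood at 41.2 CPM in the 90 WT endothelial-like cells that carried UMIs of at least 2 arterial markers, and at 8.25 CPM in the 83 such Wls cells, on 14 and 3 UMIs (ratio 0.200, interval 0.0369 to 0.718). Over all endothelial-like cells it was 43.2 CPM in WT and 23.0 CPM in Wls. Bone marrow stromal-like cells, which the Cre does not target, had 240.2 and 172 CPM (ratio 0.716, 0.630 to 0.812), and in the multipotent progenitor clusters described below the levels were 74.1 and 57.6 CPM (ratio 0.778, 0.535 to 1.12). Counts per gene cannot tell a transcript that lacks the deleted exon from an intact one.

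The study lists 4 subsets of haematopoietic stem and progenitor cells (HSPCs) in the WT library, and 544 of the 545 listed cells passed the filter: 173 multipotent HSPCs, 143 myeloid, 89 megakaryocyte and 139 neutrophil progenitors. The 4 granule enzymes were most abundant in the listed multipotent HSPCs. These enzymes are neutrophil elastase (Elane), proteinase 3 (Prtn3) and cathepsin G (Ctsg), which are serine proteases of the primary granule, and myeloperoxidase (Mpo), the haem enzyme that makes hypochlorous acid. Their summed level was 3614 CPM in multipotent HSPCs (3505 to 3726), 1958 CPM in myeloid progenitors, 184 CPM in megakaryocyte progenitors and 1.86 CPM in the listed neutrophil progenitors, the last on 2 UMIs. None of the neighbours in that order had overlapping intervals.

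Mpo was the most abundant of the enzymes and the least restricted. Its level fell from 2153 CPM in multipotent HSPCs to 1489 CPM in myeloid and 132 CPM in megakaryocyte progenitors. Prtn3 fell more steeply than Mpo from multipotent HSPCs to myeloid progenitors (3.70-fold, 3.17 to 4.33, against 1.45-fold, 1.35 to 1.55) and less steeply from there to megakaryocyte progenitors (4.77-fold, 3.12 to 7.63, against 11.2-fold, 8.74 to 14.7): Prtn3 had 876, 237 and 49.6 CPM in the same order, and Ctsg had 384, 226 and 2.07 CPM. Elane was the most restricted enzyme, with 201 CPM in multipotent HSPCs (176 to 229), 6.11 CPM on 5 UMIs in myeloid progenitors, and 0 UMIs in both remaining subsets. Against the other 3 listed subsets together, the multipotent HSPCs had 95.8-fold more Elane (40.5 to 298), 9.56-fold more Prtn3 (8.25 to 11.1), 4.91-fold more Ctsg (4.12 to 5.85) and 3.98-fold more Mpo (3.72 to 4.27). The subsets were drawn from the expression of all genes, so these ratios describe the listed groups and test nothing.

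**Figure D1:**
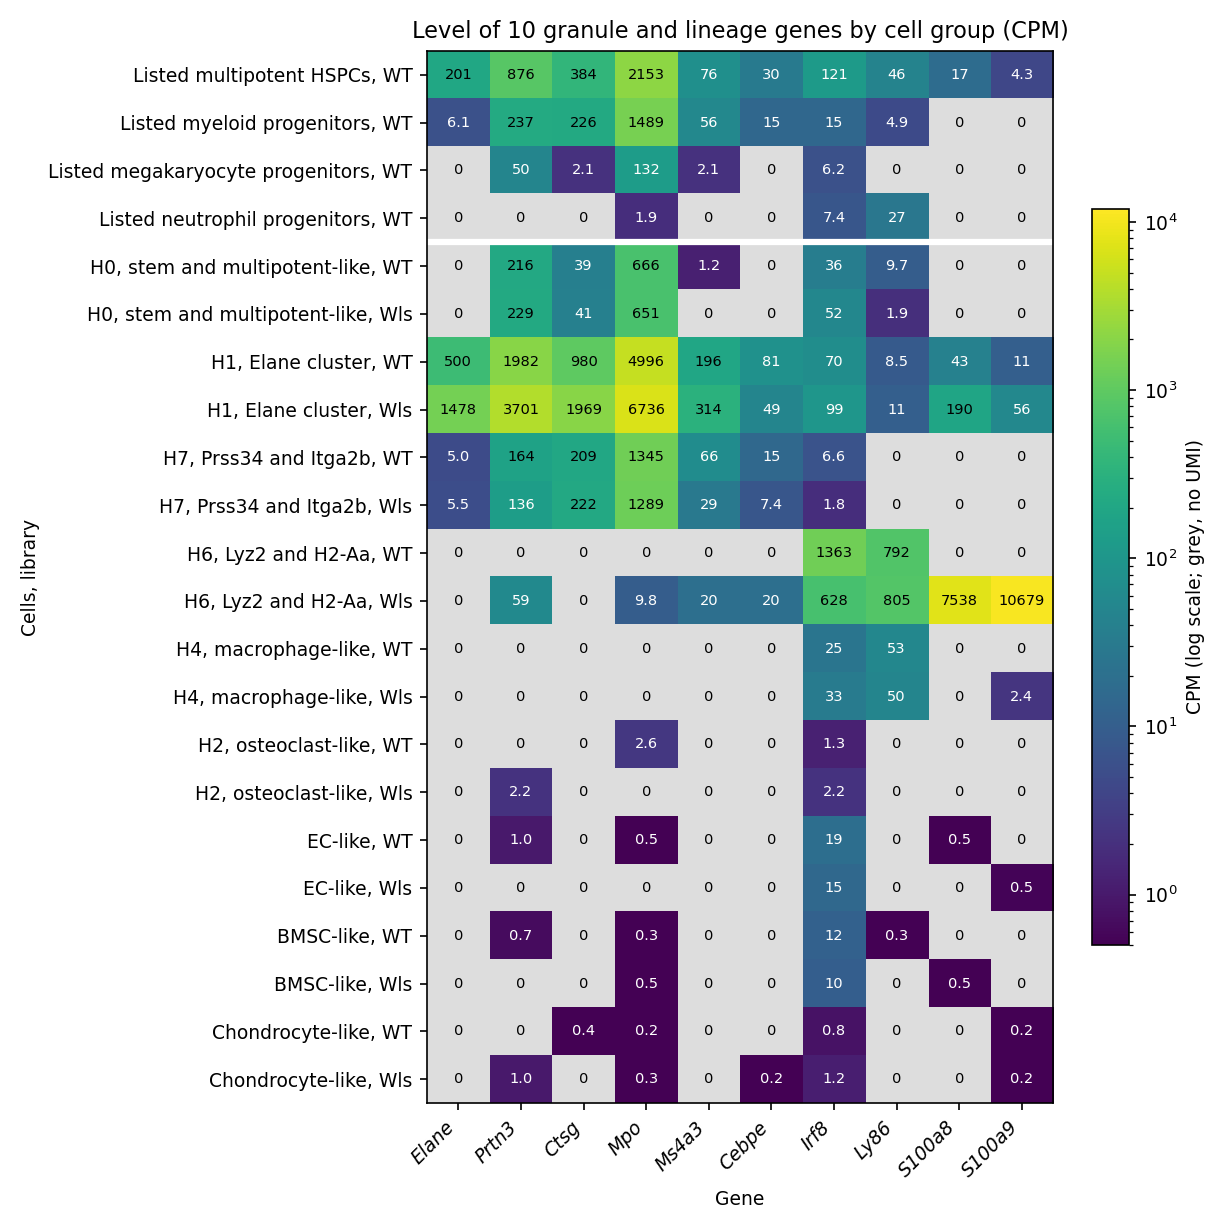
Level of each of the 10 genes (columns) in the 4 listed WT subsets and in clusters of both libraries (lines of the heat map), with the CPM value in each field, a log colour scale and grey for no UMI; H1, H6 and H7, which got no name from the marker lists, carry the names of abundant genes. The 4 granule enzymes peak in listed multipotent HSPCs and in cluster H1, where Mpo reaches 4996 CPM in WT and 6736 CPM in Wls, while Irf8 and Ly86 peak in cluster H6.

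The share of cells with a UMI followed the same order as the levels. In the listed multipotent HSPCs (median 6311 UMIs per cell) Mpo was detected in 57.2% of cells, Prtn3 in 52.0%, Ctsg in 31.2% and Elane in 15.6%, that is in 27 cells. After thinning to 1000 UMIs per cell the shares were 43.9%, 24.9%, 17.3% and 8.09%. Chondrocyte-like cells, which should lack these genes, had a median of 3630 UMIs in WT and gave 0.0910% for Mpo, 0.182% for Ctsg and 0 of 1099 cells for Prtn3 and Elane. Detection in the progenitors was therefore far above the share in chondrocyte-like cells, where the source of these UMIs was not tested. The myeloid progenitors (median 4895 UMIs) reached 51.7% for Mpo and 2.10% for Elane.

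Elane and Prtn3 lie side by side on chromosome 10, at chr10:79886247-79888215 and chr10:79874476-79883174 on the plus strand (mm10, GENCODE M21), with 3072 bases and no protein-coding gene between them. The next gene of that cluster, Cfd (complement factor D), starts 2637 bases beyond Elane and had 0 UMIs in every listed subset; Cfd was chosen after its values were seen. Ctsg lies at chr14:56099881-56102574 on the minus strand and Mpo at chr11:87793581-87804413 on the plus strand. The stretches before their starts are shown because these 4 genes moved together across the subsets. They come from the RefSeq promoter table (GRCm38.p6), which held 10 entries for 9 of the 10 genes. The stretches are chr10:79886062-79886271 for Elane, chr10:79879417-79879638 for Prtn3, chr14:56102575-56102824 for Ctsg (minus strand) and chr11:87793534-87793605 for Mpo; those of Elane, Prtn3 and Mpo stop where an annotated first exon begins or shortly inside it. Capitals mark AGGAAGT, a motif of the ETS and PU.1 type, and CAACGG, a motif of the MYB type.
Elane: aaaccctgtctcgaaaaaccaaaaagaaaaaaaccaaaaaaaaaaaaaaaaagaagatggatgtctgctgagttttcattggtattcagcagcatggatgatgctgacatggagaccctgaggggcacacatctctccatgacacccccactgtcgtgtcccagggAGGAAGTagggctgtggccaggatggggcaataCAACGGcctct
Prtn3: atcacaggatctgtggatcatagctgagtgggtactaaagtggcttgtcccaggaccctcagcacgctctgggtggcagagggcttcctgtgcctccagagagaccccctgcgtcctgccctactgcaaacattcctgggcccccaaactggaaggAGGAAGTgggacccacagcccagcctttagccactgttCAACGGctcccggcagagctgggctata
Ctsg: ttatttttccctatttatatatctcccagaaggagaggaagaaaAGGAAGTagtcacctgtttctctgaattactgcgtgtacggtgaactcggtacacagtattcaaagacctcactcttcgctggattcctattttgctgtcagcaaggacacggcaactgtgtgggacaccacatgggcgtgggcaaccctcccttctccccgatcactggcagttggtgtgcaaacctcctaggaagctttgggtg
Mpo: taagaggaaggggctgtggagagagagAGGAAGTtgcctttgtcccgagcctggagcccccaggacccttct
Both strands of the 250 bases before each start were searched for 3 motifs picked after the sequences were seen, the third being TTGCNNAA of the CEBP type, and no matches overlapped. AGGAAGT was found before Elane, Prtn3, Ctsg, Mpo and S100a8, and in 7.69% of all 32851 promoters of that length. Elane and Prtn3 also held CAACGG, which 4.05% of all promoters held, and both had the 2 motifs in the same order and at like distances: AGGAAGT began 84 and 94 bases before the start, and CAACGG 51 and 56 bases before it. TTGCNNAA was found before S100a9 alone among the 9 genes, and in 9.56% of all promoters. These distances count from the RefSeq starts, which for Elane, Prtn3 and Mpo lie inside the GENCODE genes given above, so 2 sets of starts are in use. A match of letters describes the sequence and does not show that a factor binds there.

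Ms4a3, a membrane protein of granulocyte-monocyte progenitors, and Cebpe, the factor of the later neutrophil programme, followed the enzymes at lower levels. Ms4a3 had 75.5 CPM in multipotent HSPCs and 56.2 CPM in myeloid progenitors, levels whose ratio did not differ from 1 beyond counting error (1.34, 0.930 to 1.97). Cebpe had 30.4 and 14.7 CPM. Megakaryocyte progenitors had 1 UMI of Ms4a3 and 0 of Cebpe. Neither gene had a UMI in the listed neutrophil progenitors, where 3 counts would have been 2.79 CPM.

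Irf8, the monocyte and dendritic factor, and Ly86, the secreted partner of the receptor Cd180, were also highest in the listed multipotent HSPCs. Irf8 stood at 121 CPM there (101.5 to 142.5), at 14.7 CPM in myeloid, 6.21 CPM in megakaryocyte and 7.44 CPM in neutrophil progenitors, and the last 3 had overlapping intervals. Ly86 stood at 46.0, 4.89, 0 and 27.0 CPM in the same order. Unlike the enzymes, Ly86 was thus higher in the listed neutrophil than in the myeloid progenitors. Irf8 was detected in 27.2% of multipotent HSPCs (9.83% when thinned) and in 0.273% of WT chondrocyte-like cells.

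Own clusters of all haematopoietic cells, made without the 10 genes and the gene lists, showed where these UMIs lay. The clusters are numbered H0 to H10 and named only from fixed marker lists: H0 was stem and multipotent-like, H2 osteoclast-like, H4 macrophage-like, and H1, H5, H6 and H7 were left without a name. Of the 173 listed multipotent HSPCs, 71 lay in H0, 43 in H1, 44 in H4 and 15 in H6. The 43 cells in H1 held 85.0% of the enzyme UMIs of the listed multipotent HSPCs and all 232 of their Elane UMIs. The 71 cells in H0 had 1345 CPM of the enzymes (1242 to 1455), below the level of the listed myeloid progenitors given above. The place of multipotent HSPCs above myeloid progenitors therefore rested on the cells in H1. The 44 cells in H4 and the 15 in H6 held 0 enzyme UMIs, although the 15 cells in H6 alone held 50.4% of the Irf8 UMIs and 35.8% of the Ly86 UMIs. In those 15 cells (median 2073 UMIs) Irf8 and Ly86 together reached 2587 CPM (2077 to 3183), against 70.9 CPM in the 71 listed cells of H0. The level of 167 CPM for Irf8 and Ly86 in listed multipotent HSPCs therefore fell to 57.9 CPM (45.5 to 72.6) when H0 and H1 took the place of the listed label, a comparison chosen after the data were seen, while the enzyme level was 3645 CPM. With H0 and H4 in that place, the clusters that held most of the listed cells, the enzyme level was 563.5 CPM.

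The listed neutrophil progenitors carried almost none of the 10 genes. In 139 cells with a median of 7357 UMIs, 7 of the 10 genes had 0 UMIs, S100a8 and S100a9 among them, which by the limit of 3 counts allows a UMI in up to 2.16% of cells and does not limit the cells that express the gene. The 3 genes detected were Mpo on 2 UMIs, Irf8 on 8 and Ly86 on 29, and 24 of the Ly86 UMIs came from 9 cells in H6. The neutrophil marker list was also nearly silent there, with 2 of 7 markers detected on 3 UMIs in all and Ltf, Camp, Ngp, Retnlg and Lcn2 at 0. Osteoclast markers were detected 10 of 10, at 31004.9 CPM in sum and 18556.4 CPM for Ctsk, and macrophage markers 9 of 10, at 3410 CPM in sum and 2136 CPM for Cd68, with Cd163 at 0. Cd68 stood at 2558 CPM in the osteoclast-like cluster H2 of WT as well, so it does not tell the 2 cell types apart. Of these 139 cells, 86 lay in the osteoclast-like cluster H2 and 43 in the macrophage-like cluster H4. The Gr-1 depletion removes mature neutrophils, and its part in the 0 counts was not tested. Against these cells the multipotent HSPCs had 314-fold more Prtn3, 137.6-fold more Ctsg and 72.2-fold more Elane when a floor of 3 UMIs was put in place of 0.

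At full depth the granule genes were nested within single cells. All 30 listed HSPCs with an Elane UMI also had Prtn3, Ctsg and Mpo UMIs (30 of 30, interval 88.4% to 100%), and Mpo, with or without the other 2, was found in 31.9% of the 514 cells without Elane. Of the 104 Ctsg cells, 98.1% had Mpo and 87.5% had Prtn3; of the 175 Prtn3 cells, 85.1% had Mpo. Mpo was the widest of the set, in 194 cells, and only 30 of these had Elane. Thinning every cell to 1000 UMIs left 14 Elane cells, and all 14 kept Mpo while 12 kept Prtn3 and 11 kept Ctsg. The other steps were weaker when thinned: of 52 Ctsg cells 41 had Mpo and 25 had Prtn3 (48.1%), and of 70 Prtn3 cells 50 had Mpo (71.4%). Cells with all 4 enzymes numbered 30, with 3 enzymes 61, with 2 enzymes 69, with 1 enzyme 62 and with none 322, and their median enzyme UMIs rose from 1.5 with 1 enzyme to 85 with all 4. Median depth also rose, from 4988 UMIs per cell with 1 enzyme to 9250 with 4, and its part in the nesting was not tested beyond the thinning.

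Ms4a3 and Cebpe were found mostly in Elane cells at full depth. Ms4a3 was found in 26 of the 30 Elane cells (86.7%) and in 4.28% of the other listed HSPCs, and all 48 Ms4a3 cells had Mpo. Cebpe was found in 17 of the 30 Elane cells (56.7%) and in 1.17% of the others. Thinned to 1000 UMIs, 0 of 14 Elane cells had Ms4a3 (0% to 23.2%) and 1 had Cebpe, and 0 of 10 Ms4a3 cells had Elane, whereas in thinned Wls cells 4 of 15 Elane cells had Ms4a3 and 4 of 6 Ms4a3 cells had Elane. These cells were too few to show an order at equal depth. All 6 listed HSPCs with S100a8 and all 4 with S100a9, the calcium-binding proteins that fill the neutrophil cytosol, had Elane as well.

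At full depth Mpo was found more often in Irf8 cells than in Ly86 cells. Of the 67 Irf8 cells, 35 had Mpo (52.2%), 22 had Ctsg and 5 had Elane. Among the 30 Elane cells, 5 had Irf8 (16.7%, 5.64% to 34.7%) against 12.1% of the cells without Elane (9.37% to 15.2%), a difference within counting error. Mpo was found in 8.57% of Ly86 cells (1.80% to 23.1%) and in 37.5% of cells without Ly86: of the 35 Ly86 cells 3 had Mpo, 4 had Prtn3 and 0 had Elane, Ctsg, Ms4a3 or Cebpe, while 21 had Irf8 (60.0%). Thinned to 1000 UMIs, Mpo was in 5 of 22 Irf8 cells (7.82% to 45.4%) and in 1 of 19 Ly86 cells (0.133% to 26.0%), intervals that overlap. The Wls library had 22 haematopoietic Elane cells, of which all 22 had Prtn3, Ctsg and Mpo, 19 had Ms4a3, 12 had Cebpe, 3 had Irf8 and 1 had Ly86. Its 41 Ly86 cells included 3 with Ctsg and 19 with Irf8 (46.3%). Thinned, Prtn3 was in 21 of 26 haematopoietic Ctsg cells of Wls (80.8%, 60.7% to 93.5%). In haematopoietic cells of WT it was in 25 of 53 (47.2%, 33.3% to 61.4%), and the intervals overlap.

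**Figure D2:**
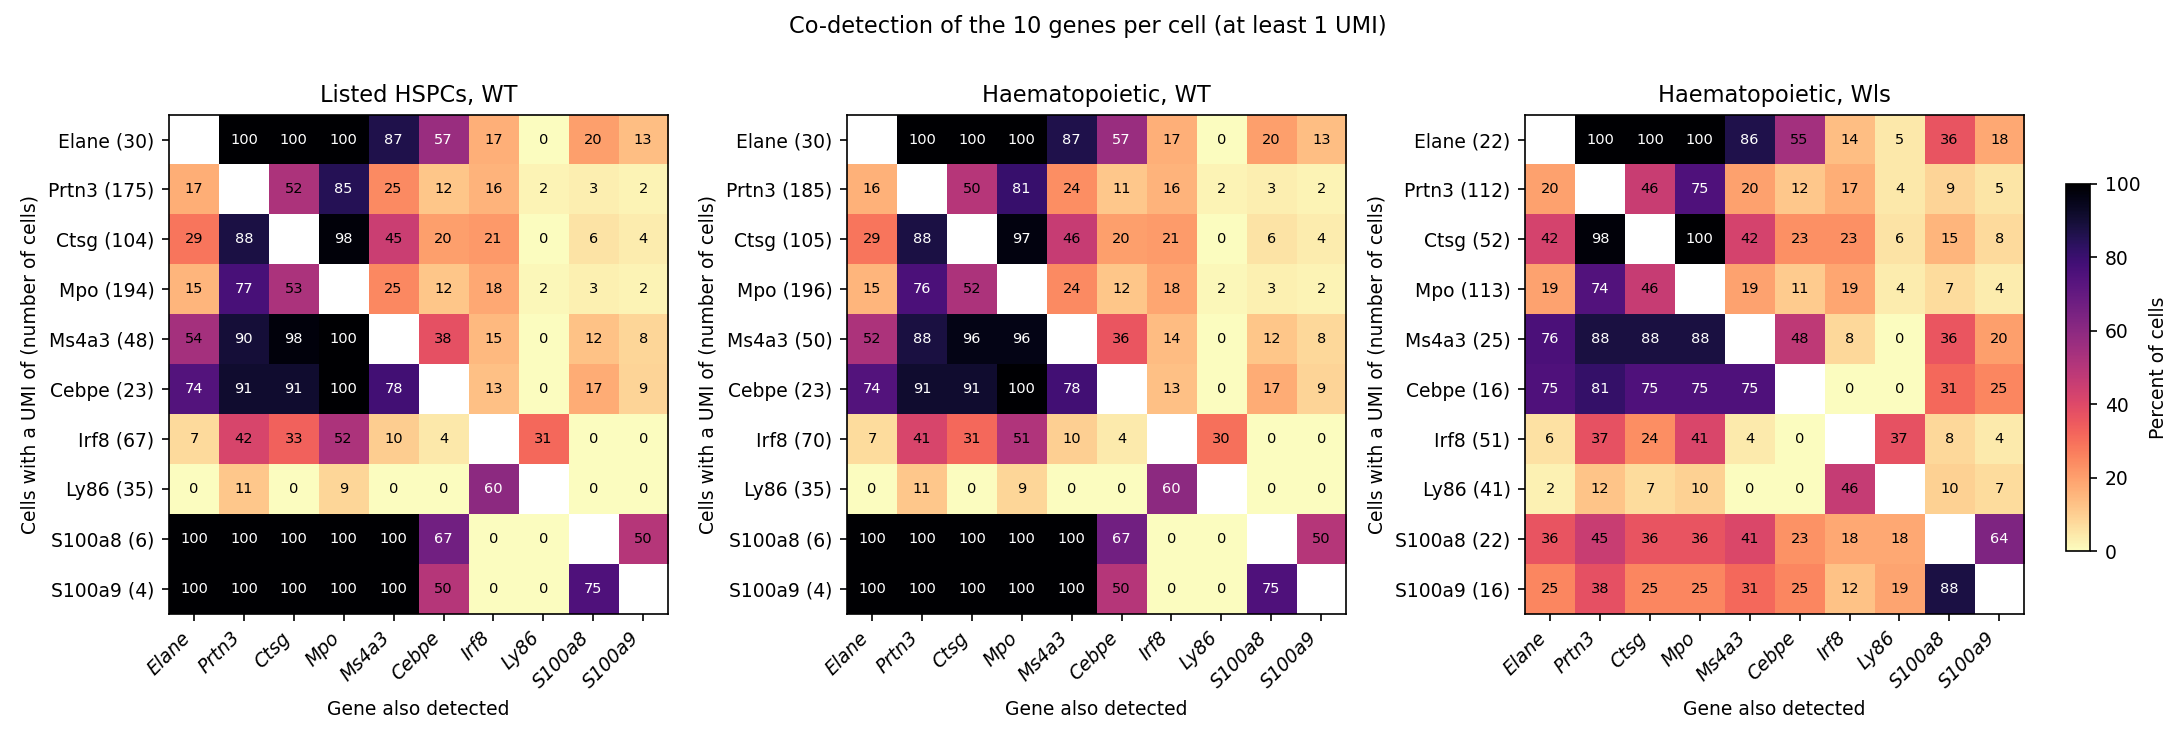
Share of cells with a UMI of the gene in each row that also have a UMI of the gene in each column, in percent, for listed WT HSPCs and for all haematopoietic cells of WT and of Wls; the number of cells with the gene is given in brackets. The Elane row holds 100% for Prtn3, Ctsg and Mpo in all 3 panels, and the Ly86 row holds 0% for Elane in WT.

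Cells with at least 2 enzyme UMIs, called granule cells here, numbered 191 of the 544 listed HSPCs (35.1%, 31.1% to 39.3%). Irf8 or Ly86 was detected in 35 of them (18.3%, 13.1% to 24.6%), with 7700 UMIs in the median cell, and in 46 of the 353 other cells (interval 9.70% to 17.0%), with 5480. Thinned to 1000 UMIs, the share in granule cells was 4.59%, on 5 of 109 cells, and with at least 2 UMIs of Irf8 or of Ly86 required it was 5.24% (10 of 191), so most of this co-detection rested on single UMIs of these 2 genes. Shares by subset were 26.7% of 101 granule cells in multipotent HSPCs and 9.46% of 74 in myeloid progenitors. In the Wls library 111 of 470 haematopoietic cells were granule cells (23.6%) and 23 of these had Irf8 or Ly86 (20.7%, 13.6% to 29.5%), a share like the 18.6% of the 194 WT granule cells among all haematopoietic cells.

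The order of Irf8 by enzyme content depended on which cells were counted. In listed multipotent HSPCs, Irf8 stood at 250.3 CPM in the 68 cells with no enzyme UMI, at 90.3 CPM in the 78 cells with an enzyme but no Elane, and at 23.1 CPM in the 27 Elane cells. Ly86 stood at 128, 19.5 and 0 CPM in the same order. Cebpe ran the other way, from 0 to 1.77 to 131 CPM, and so did Ms4a3, from 0 to 7.08 to 320.0 CPM. Median depth was 4519, 7038 and 9414 UMIs, and the cells without enzymes included all those of H4 and H6. Within H0 and H1 of WT, without those cells, Irf8 was 10.4 CPM in the 51 cells with no enzyme, 64.6 CPM in 124 cells with an enzyme but no Elane and 26.2 CPM in 28 Elane cells. The Wls library had 37.9, 68.8 and 85.7 CPM in 28, 71 and 18 cells, but the last value rested on 17 UMIs in 3 cells, and 1 Elane cell alone had 13 UMIs of Irf8 and Ly86, so no order was read from it.

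**Figure D3:**
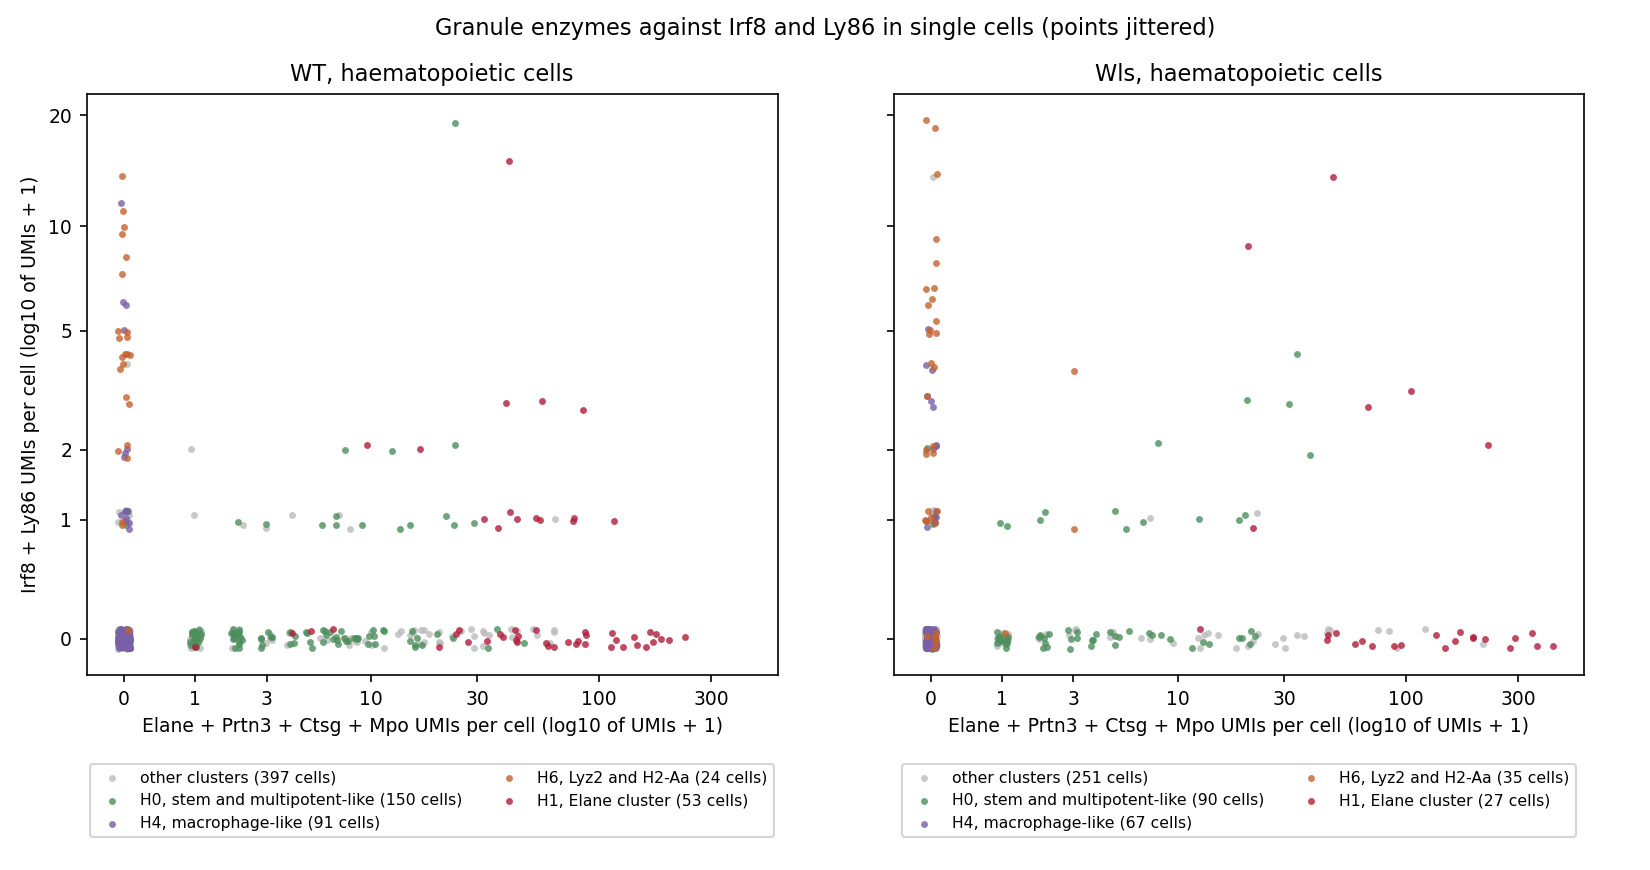
UMIs of the 4 granule enzymes (horizontal axis) against UMIs of Irf8 and Ly86 (vertical axis), both as log10 of UMIs + 1, in each haematopoietic cell of the WT and the Wls library, 1 jittered point per cell, coloured by cluster. H6 cells lie at or near 0 enzyme UMIs with up to 14 Irf8 and Ly86 UMIs in WT and 20 in Wls, and H1 cells lie to the right, mostly at 0 or 1.

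Across the clusters of both libraries, H1 was the cell group of the granule genes. It held 53 WT and 27 Wls cells (median 8835 and 10605.0 UMIs), that is 7.41% and 5.74% of haematopoietic cells, yet 98.3% of all Elane UMIs in WT and 93.3% in Wls. It also held 62.0% and 62.4% of all Mpo UMIs, and Mpo was detected in every H1 cell of either library. H0, the stem and multipotent-like cluster, had no Elane and no Cebpe UMI in 150 WT or 90 Wls cells, although Prtn3 stood at 216 and 229 CPM and Mpo at 666 and 651 CPM. Cluster H7, with megakaryocyte and basophil markers both raised (of its 87 WT cells 51 were listed myeloid and 33 listed megakaryocyte progenitors), had Mpo at 1345 and 1289 CPM and Ctsg at 209 and 222 CPM with only 3 Elane UMIs in each library. Its WT Mpo lay mostly in the myeloid label, at 2051 CPM against 26.8 CPM in the megakaryocyte label. H8, haematopoietic cells with chondrocyte markers (27 WT and 25 Wls), had Mpo at 304 and 547 CPM, but 1 Wls cell held all 25 of its Elane UMIs and 92 of its 106 Mpo UMIs in that library. Mpo, Prtn3 and Ctsg were thus shared by H0, H1 and H7, while within these 3 Elane, Cebpe and S100a8 lay mostly in H1, apart from those Elane UMIs and from 9 WT and 4 Wls UMIs of Cebpe in H7.

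Irf8 and Ly86 had their highest levels in H6, a small cluster of shallow cells (24 WT and 35 Wls cells, median 2174 and 2707 UMIs). Irf8 stood at 1363 CPM in WT and 628 CPM in Wls, a ratio of 0.461 (0.325 to 0.653), and Ly86 at 792 and 805 CPM. Dendritic markers were abundant there: 5 of 7 were detected in WT at 10439.9 CPM in sum, with H2-Aa at 6131 CPM, and 4 of 7 in Wls at 3043 CPM, with H2-Aa at 1659 CPM. The make-up of H6 thus differed between the libraries, and its part in the ratio of Irf8 was not tested.

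Macrophage-like cells (H4, 91 WT and 67 Wls cells, median 5742 and 5694 UMIs) carried no granule enzyme, and had Irf8 or Ly86 in 14 WT and 16 Wls cells. Irf8 was 24.8 CPM in WT and 33.2 CPM in Wls, and Ly86 was 53.3 and 49.8 CPM. Summed, the pair had a ratio between the libraries of 1.06 (0.657 to 1.71), which depended on the cells counted. It was 3.32 (1.64 to 7.29) without the top Scrublet cells, 1.79 (1.25 to 2.64) with each library clustered alone and 0.825 (0.491 to 1.38) at the finer resolution. At the finer resolution the macrophage name went to only 12 WT and 14 Wls cells, with 36 and 30 UMIs of the pair, beside a cluster of 79 and 53 cells without a name. With each library clustered alone it went to 12 WT and 44 Wls cells, with 36 and 176 UMIs of the pair. That Wls cluster also had Lyz2, F13a1, H2-Aa and Cd74 among its top genes, so the 1.79 compares unlike cells. In H4 of WT all 10 macrophage markers were detected (2703 CPM in sum, 874 CPM for Cd68), but so were all 10 osteoclast markers (9964 CPM in sum, 4524 CPM for Ctsk), so H4 carried both sets of markers. None of Elane, Prtn3, Ctsg, Mpo, Ms4a3 and Cebpe had a UMI in H4 of either library, and S100a9 had 1. Osteoclast-like cells (H2, 86 WT and 53 Wls cells, median 8407 and 8754 UMIs) had few UMIs of these genes, with 2 Mpo UMIs and 1 Irf8 UMI in WT and 1 Prtn3 and 1 Irf8 UMI in Wls. Outside the blood lineages Irf8 was present at 18.9 and 15.3 CPM in endothelial-like and at 11.6 and 10.1 CPM in stromal-like cells, above the 0.826 and 1.17 CPM of chondrocyte-like cells.

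H0 and H1 were pooled as the multipotent progenitor clusters to compare the libraries (203 WT and 117 Wls cells, median 6170 and 6237 UMIs), because the Wls cells carry no label of the study and listed multipotent HSPCs were the most numerous label in both. H1 is not multipotent by its markers: its top genes were Prg2, Elane, Ear6, Prtn3 and Ctsg, and of its best list 1 of 5 markers was 2-fold higher. A ratio that comes from H1 is therefore not one of multipotent cells. The granule enzymes were higher in the Wls library there, at 5524 against 3645 CPM, a ratio of 1.52 (1.45 to 1.58), and leaving out any 1 cell gave 1.401 to 1.58. Elane had the largest ratio of the enzymes, 2.91 (2.47 to 3.43), followed by Ctsg at 1.91 (1.69 to 2.16), Prtn3 at 1.71 (1.58 to 1.86) and Mpo at 1.26 (1.19 to 1.33). The difference lay in H1, where the enzyme level was 8459 CPM in WT and 13884.5 CPM in Wls (1.64, 1.57 to 1.72), and not in H0, where it was 921 and 920.8 CPM (0.9998, 0.890 to 1.12). H7 gave a ratio of 0.959 (0.876 to 1.05). H0 alone and H1 alone were looked at after the data were seen.

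Among haematopoietic cells with a UMI of the gene in question, the median cell carried 3.5 Elane UMIs in 30 WT cells and 14 in 22 Wls cells, with maxima of 39 and 65. Mpo medians were 9 and 12, Ctsg medians 3 and 6.5, and Prtn3 medians 2 in both, so among the 4 enzymes the shift per cell was largest for Elane. Medians of S100a8 were 1 in 6 WT cells and 7.5 in 22 Wls cells, and those of S100a9 were 1 in 4 and 6.5 in 16. The S100 medians compare unlike cells. All 7 WT haematopoietic cells with a UMI of the pair lay in H1, whereas of 24 in Wls 13 lay in H6 and 8 in H1. The direction of the enzyme ratio depended on which cells were counted. When clusters were made with the 10 genes and the lists included, cells of H1 (27 WT and 15 Wls) and H7 (35 and 18) formed a cluster outside the multipotent ones, and the ratio in the multipotent clusters became 0.987 (0.916 to 1.06), while in that mixed cluster the levels were 7245 CPM in WT and 11603.4 CPM in Wls (interval of the ratio 1.53 to 1.68). Over all kept cells of each library the enzyme ratio was 0.866 (0.835 to 0.898), beside a haematopoietic share of 12.5% of WT and 7.10% of Wls cells, and over haematopoietic cells alone it was 1.47 (1.42 to 1.53).

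The other genes split between the libraries. Ms4a3 was 1.55-fold higher in Wls (1.15 to 2.10) in the multipotent progenitor clusters, but 0.152 of the WT level when the 10 genes and lists took part in clustering, and it was lower in H7, at 66.4 against 29.4 CPM (0.443, 0.232 to 0.809). Cebpe had a ratio of 0.598 (0.299 to 1.13), Irf8 of 1.42 (0.969 to 2.07) and Ly86 of 0.541 (0.127 to 1.79; 0.273 to 1.29 when any 1 cell was left out), and none of these 3 differed from 1 beyond counting error. S100a8 was 4.38-fold higher (2.58 to 7.73), on 20 WT and 54 Wls UMIs that all lay in Elane cells, and leaving out 1 cell gave ratios from 2.23 to 12.4. S100a9 had a ratio of 5.19 on 5 and 16 UMIs, which fell to 0.990 without 1 cell. With each library clustered alone the ratios were 58.3 for S100a8 and 362.5 for S100a9, so both depended on which cells were counted. The Wls cells carry no listed label, so the rule for the multipotent progenitor clusters could not be applied there in full. Wls clustered alone held a cluster of 33 cells named neutrophil (7 of 7 markers), with Ngp, S100a9 and Elane among its top genes. These ratios may include those cells, and so may not be ratios of multipotent progenitor clusters.

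These counts were set beside the same counts over all genes. At least 4-fold above the other listed subsets in multipotent HSPCs were 0.717% of the 9907 genes with at least 20 UMIs, and 6 of the 9 genes described here that could be tested: Elane, Prtn3, Ctsg, Cebpe, Irf8 and S100a8. S100a8 passed that filter with 20 UMIs that all lay in the multipotent HSPCs, so its call is a weak one. Elane (232 UMIs there and 5 in the other listed subsets) and Cebpe (35 and 12) also passed only through the multipotent HSPCs. The calls of S100a8, Elane and Cebpe therefore carry no weight beside the share over all genes. The other listed subsets include the listed neutrophil progenitors, which carried almost none of the 10 genes. Against the listed myeloid progenitors alone, Elane was 33.0-fold and Irf8 8.23-fold higher, and S100a8 had 0 UMIs in them. Prtn3 (3.70-fold), Cebpe (2.07-fold) and Ctsg (1.70-fold) were under 4-fold there, so their calls depend on the subsets compared. At least 1.5-fold higher in Wls in the multipotent progenitor clusters were 7.65% of 8677 genes and 6 of 9 of these genes, namely Elane, Prtn3, Ctsg, Ms4a3, S100a8 and S100a9. When the 10 genes and lists took part in clustering, Elane alone of these 6 was still 1.5-fold higher (1.51), with Prtn3 at 0.992, Ctsg at 0.981 and no ratio for the S100 genes. S100a9 passed the filter on 5 and 16 UMIs and lost its call without 1 cell, as given above. At least 1.5-fold lower were 7.36% of genes and 1 of these, Cebpe, whose ratio was 0.795 without the top Scrublet cells. The median log2 ratio of Wls to WT was 0.77 over the 9 genes and -0.01 over all genes tested. S100a9 in the first comparison and Ly86 in the second had fewer than 20 UMIs.

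**Figure D4:**
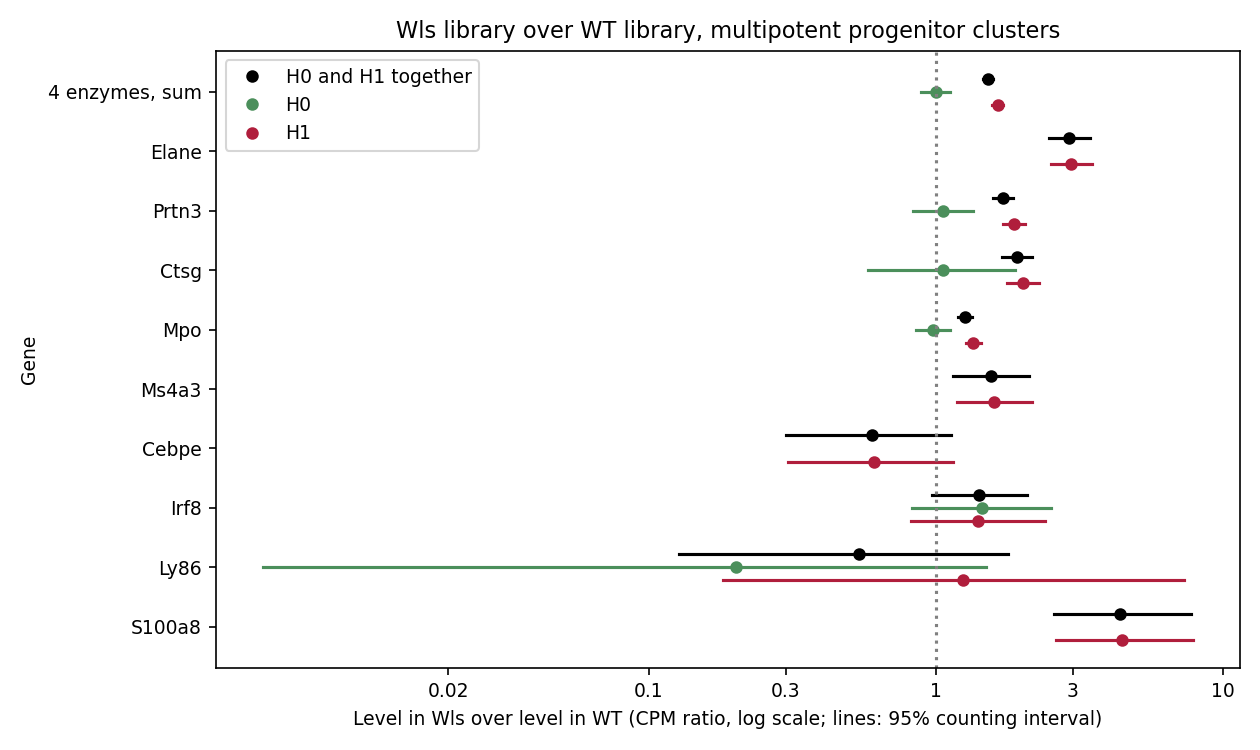
Ratio of the level in Wls to the level in WT for each gene and for the 4 enzymes summed, in H0 and H1 together, in H0 and in H1, on a log axis with 95% counting intervals; the dotted line marks a ratio of 1, and S100a9 is not drawn and a point is drawn where both libraries have a UMI. Elane at 2.91 has the largest ratio among the enzymes, and the interval of Irf8 (0.969 to 2.07) holds 1.

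S100a8 and S100a9 differed most between the libraries, through a few Wls cells. All kept WT cells held 28 UMIs of the pair and all kept Wls cells 1939, a ratio of 63.2 (43.6 to 95.4), or of 234 as a per-cell mean. In Wls 31 cells had a UMI, but 7 cells with at least 50 UMIs held 91.7% of the total and the highest cell alone held 738 UMIs (38.1%). Without that cell the ratio was 39.2, and without the 7 cells it was 5.25; both were computed after the data were seen. All 7 cells lay in H6, had a median depth of 1820 UMIs and 0 Elane and 0 Mpo UMIs, and 4 of the 7 had Ngp, Ltf and Camp, genes of the later neutrophil granules. H6 held 768 S100a8 UMIs in Wls and 0 in WT (136.5-fold against a floor of 3 UMIs), and 1088 S100a9 UMIs against 0 (193-fold against that floor). All 7 neutrophil markers were detected in H6 of Wls (8932 CPM in sum, 4063 CPM for Ngp), and 2 of 7 in H6 of WT (55.2 CPM on 3 UMIs, with Ltf, Camp, Ngp, Retnlg and Lcn2 at 0). Such cells are ones that the Gr-1 depletion removes, and whether the depletion was equally complete in both libraries was not tested.

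A second set of S100 cells lay in H1 and carried the enzymes. Of the 10 WT cells with a UMI of the pair, 7 were in H1 and all 7 had Elane; the highest had 13 S100a8, 32 Elane and 83 Mpo UMIs. In Wls 8 such cells were in H1, and the highest had 27 S100a8, 13 S100a9, 50 Elane, 129 Prtn3 and 131 Mpo UMIs. Elane was found in 8 of the 22 Wls haematopoietic cells with S100a8 (36.4%), against 6 of 6 in WT. S100a8 was thus found with Elane and Mpo in H1 and without them in H6.

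**Figure D5:**
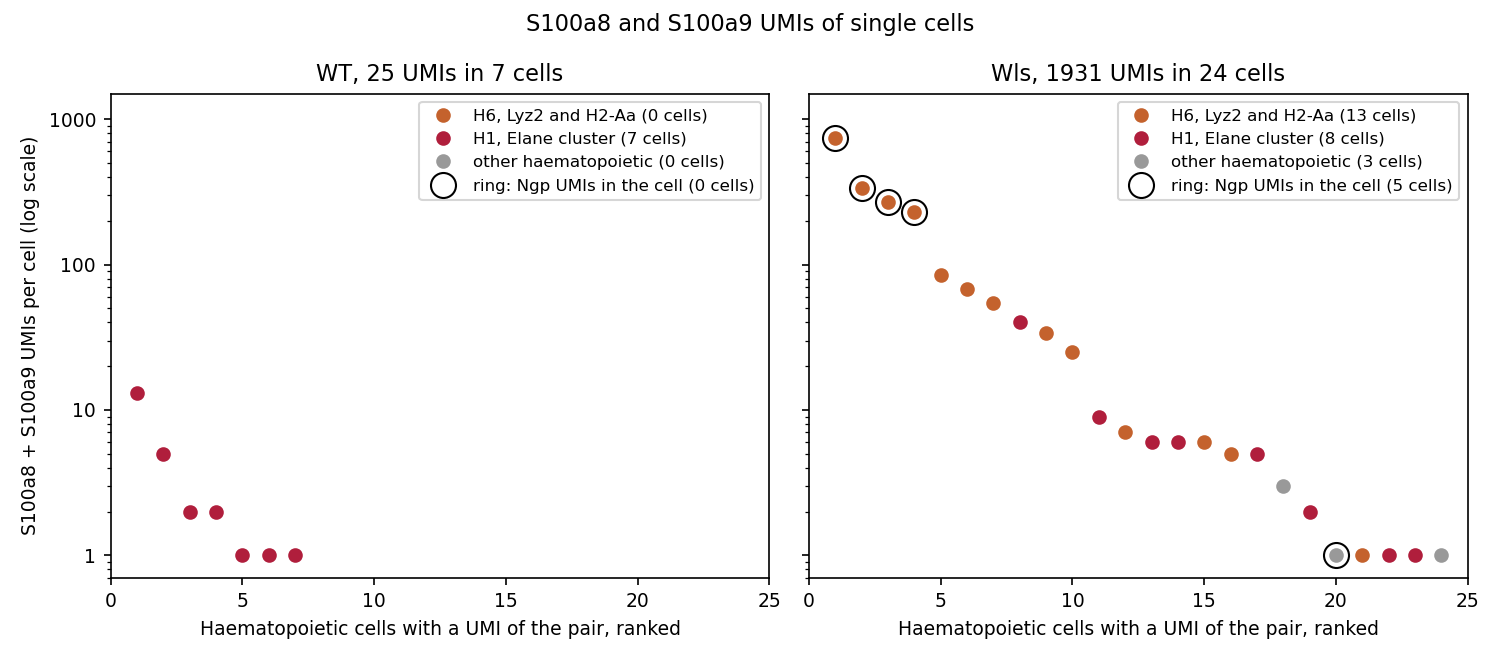
UMIs of S100a8 and S100a9 together (log scale) in each haematopoietic cell with a UMI of the pair, ranked from the highest, for 7 WT and 24 Wls cells, coloured by cluster, with a ring where the cell has Ngp. The 7 highest Wls cells are in H6 and the highest holds 738 UMIs, while every WT cell is in H1 and the highest holds 13.

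Partner genes of the primary granule were detected broadly. Of 10 listed partners 9 had at least 20 UMIs in the listed HSPCs, led by the chaperone Calr at 2069 CPM, the granule proteoglycan Srgn at 900.4 CPM, Plac8 at 714 CPM and the protease inhibitor Serpinb1a at 122 CPM. None of the 9 was 4-fold higher in multipotent HSPCs, beside 0.717% of all genes. None moved 1.5-fold between the libraries in the multipotent progenitor clusters (median log2 ratio 0.17), beside 7.65% of all genes higher and 7.36% lower in Wls. Within the listed HSPCs, Plac8 stood at 1473 CPM in granule cells and 173 CPM in the others, Serpinb1a at 257 and 25.7 CPM, and Srgn at 1494 and 477 CPM. Calr differed less (2630 and 1670 CPM), and Ctsc, named after its values were seen, ran the other way (85.1 and 133 CPM). Granule cells are defined by enzyme UMIs, so their partners cannot be set against the enzymes here.

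Of 17 genes of later neutrophil stages 4 had at least 20 UMIs in the listed HSPCs, beside 9907 of all 22652 genes. These were Mmp9 at 5166 CPM, Cxcr2 at 14.4 CPM, Csf3r at 12.2 CPM and Fpr2 at 5.95 CPM. Mmp9 did not follow the granule genes: it stood at 2.04 CPM in granule cells and 8850 CPM in the other listed HSPCs, and osteoclast-like cells, which also make it, had 18744.9 CPM in WT.

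All 11 regulators passed 20 UMIs, with Myb at 341, Spi1 at 229, Runx1 at 180 and Egr1 at 172 CPM. Of these, 4 of 11 were at least 1.5-fold higher in Wls and 0 lower, beside 7.65% and 7.36% of all genes. Their median log2 ratio was 0.02, beside -0.01 over all genes. Of 7 growth factor receptors all passed, led by Csf1r at 416, Csf2rb at 235, Kit at 120 and Csf2ra at 106 CPM. At least 1.5-fold higher in Wls was 1 of the 7, beside 7.65% of all genes, and their median log2 ratio was -0.02. Csf3r, the receptor of the neutrophil growth factor, and Flt3 were the 2 receptors at least 4-fold higher in multipotent HSPCs, by 6.01-fold and 8.14-fold. Over all genes 0.717% were. Csf3r passed the filter of 20 UMIs only through the multipotent HSPCs, so its call carries no weight beside that share.

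Monocyte genes passed in 10 of 11 cases, with Lyz2 at 240.0, Ctss at 102, F13a1 at 63.5 and Ccr2 at 59.2 CPM. Of the 5 that could be compared between the libraries, 3 were at least 1.5-fold higher in Wls, beside 7.65% of all genes. Ccr2 was among them, with an interval (0.906 to 2.91) that holds 1. Dendritic cell genes passed in 8 of 12 cases, with Tcf4 at 144, Id2 at 128, H2-Aa at 107 and H2-Ab1 at 95.8 CPM. At least 4-fold higher in multipotent HSPCs were 4 of 8, beside 0.717% of all genes. Cluster H6 had H2-Aa, Cd74 and H2-Eb1 among its top genes, and 15 of its 24 WT cells carried the multipotent label. These calls are therefore not a trait of the multipotent label as a whole, and the part of H6 in them was not tested. At least 1.5-fold higher in Wls was 1 of 4, beside 7.65% of all genes. Of the Ly86 and toll-like receptor partners 4 of 5 passed, namely Unc93b1 at 41.4, Tifab at 37.7, Cd180 at 21.8 and Ly96 at 13.9 CPM. At least 1.5-fold higher in Wls were 3 of the 3 that could be compared, beside 7.65% of all genes. Their median log2 ratio was 0.84, beside -0.01 over all genes, although the interval of Cd180 (0.892 to 3.25) holds 1. Ly96 had too few UMIs to be compared between the libraries. Cd180, the receptor that Ly86 accompanies, was thus present at a level close to that of Ly86 itself, 24.4 CPM over the listed HSPCs.

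The genes most like Elane over the 544 listed HSPCs included 2 of the other enzymes. By Pearson's r of log-normalised counts over 9661 genes, Elane was most like Ms4a3 (0.69), Ctsg (0.65), Prtn3 (0.61), Mtus1 (0.58) and F630028O10Rik (0.58). Irf8 was most like H2-Ab1 (0.66), Mpeg1 (0.65), Cd74 (0.65), Naaa (0.64) and H2-DMb1 (0.58). Ly86 was most like Lyz2 (0.74), Ms4a6c (0.68), Plbd1 (0.68), Mpeg1 (0.66) and Cybb (0.65). Elane and Irf8 had r = -0.03 and Irf8 and Ly86 had r = 0.49. The cells share 1 library and differ in depth, so r is a description. In the multipotent progenitor clusters Irf8 was most like F13a1 (0.42), Tifab (0.38), H2-DMa (0.35), Ccl9 (0.31) and Mpp1 (0.31) over 203 WT cells and most like Milr1 (0.39), Ccl9 (0.39), Snx9 (0.35), Gm11249 (0.35) and Tifab (0.35) over 117 Wls cells, so Tifab and Ccl9 were in both lists. Elane and Ly86 were in too few of those Wls cells (18 and 3) for a list.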

How the data were processed

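The authors deposited raw counts, UMIs per gene and cell barcode, for 1 library per genotype, made with UMI-tools 1.0.1, STAR 2.7.1a (mm10) and featureCounts 1.6.4. The 10 genes and the gene lists were chosen with earlier results of these data known. Listed subsets were joined by barcode. Kept cells of both libraries were clustered together without the 10 genes and lists (scanpy 1.11.5, leidenalg 0.10.2; scale 10000, 11 principal components, 20 neighbours, resolution 0.5), and haematopoietic cells again. Multipotent progenitor clusters are those whose top marker list was stem and multipotent or general haematopoietic and whose most numerous listed label was multipotent HSPCs. Doublets were kept: Scrublet's threshold called 38 WT and 0 Wls cells and so did not work. Named genes are mainly the 10 genes, Wls, the 2 to 4 most abundant genes of each list with at least 20 UMIs, and the 5 genes most like Elane, Irf8 and Ly86. The others are cell type markers, top genes of clusters, Flt3 as a receptor called 4-fold higher, and genes chosen after their values were seen. Intervals (scipy 1.17.1) were tried on simulated Poisson counts only. Those counts hold no clustering of UMIs in single cells, so the trial cannot show how the intervals perform with it. Depth was 22708005 (WT) and 24704991 (Wls) UMIs. Alternatives covered filters, doublets, totals, per-cell means, thinning, detection limits, labels and clustering.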

Additional observations from a re-analysis of the deposited data

How the results depend on the processing

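Of 50 changes to the processing, 36 kept the value within its counting interval, 13 moved it and 1 took an enzyme ratio above 1 to 0.987, with an interval that holds 1 and so no reversed difference. For S100a8 and S100a9 in the listed neutrophil progenitors the 5 values of 0 CPM carry no weight, because they use the same cells or fewer. The share of Elane cells with Mpo could change only where counts changed, and it was 100% thinned (14 of 14) and with 2 UMIs required (21 of 21). The ratio of Irf8 and Ly86 in the multipotent progenitor clusters was 1.25 to 1.45 in 7 of 7. Its counting interval (0.892 to 1.82) holds 1, and leaving out any 1 cell gave 1.006 to 1.67. The enzyme level in listed multipotent HSPCs became 3747 CPM with the top 5% of Scrublet scores left out, 3818 CPM with a total that leaves out haemoglobin and mitochondrial genes, 2664 CPM as a per-cell mean and 563.5 CPM in own subclusters (H0 with H4, which hold most of the listed cells). For Irf8 and Ly86 there, the per-cell mean was 347 CPM and own subclusters gave 58.4 CPM. The share of granule cells with Irf8 or Ly86 was 4.59% thinned and 5.24% with 2 UMIs required. The enzyme ratio between the libraries was 1.36 as a per-cell mean, 1.59 at resolution 1.0 and 0.987 when the 10 genes and lists took part in clustering. At resolution 1.0 the multipotent progenitor clusters left out a stem and multipotent-like cluster of 68 WT and 47 Wls cells with 9 of 9 markers. For macrophage-like cells, the Irf8 and Ly86 ratio was 3.32 without the top Scrublet cells, on 11 WT and 33 Wls UMIs. It was 0.825 at resolution 1.0, and 1.79 with each library clustered alone, where unlike cells were compared. The S100 ratio was 234 as a per-cell mean.

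A further 8 changes were chosen after seeing the data: 3 kept the value, 4 moved it and 1 (H0 alone) took it to no difference. H0 alone gave an enzyme ratio of 0.9998 (0.890 to 1.12) and H1 alone 1.64. H6 added to H0 and H1 gave an Irf8 and Ly86 ratio of 1.601 (1.31 to 1.96), which does not hold 1. Within H6, however, Irf8 was lower in Wls and Ly86 was alike, as given above. H6 held 24 WT and 35 Wls cells, beside 203 and 117 in H0 and H1. The 1.601 therefore depends on the number of H6 cells in each library and does not show a higher level within the clusters. H0 with H1 gave 57.9 CPM for Irf8 and Ly86. The S100 ratio was 39.2 without the highest cell and 5.25 without the 7 cells with at least 50 UMIs. The cause of these shifts was not tested. With 1 library per genotype, the parts of genotype, library, litter, dissection and depletion cannot be told apart. In the multipotent progenitor clusters the intervals for Cebpe, Irf8 and Ly86 hold 1, so a difference was not detectable at this depth. The names of clusters are not those of the study.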

Other observations

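Cluster H1 also held eosinophil-type genes, which were chosen after their values were seen. Prg2, the major basic protein of eosinophil granules, had 2216 UMIs in 10 WT cells of H1 and 29 UMIs in 1 Wls cell. Epx, the eosinophil peroxidase, had 92 UMIs in WT and 7 in Wls, and Ear6 had 228 and 3. Of the 9 WT cells with at least 10 Prg2 UMIs, all 9 had Mpo (7204 CPM), 5 had Elane and 7 had Cebpe. Without the cells with at least 10 Prg2 UMIs the ratio of Wls to WT in H1 was 1.65 for the enzymes and 0.798 for Cebpe.

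Cluster H7, in which Mpo and Ctsg were found almost without Elane, held a few cells with basophil-type genes that were likewise chosen after their values were seen. Prss34 had 357 UMIs in WT, of which 351 lay in 11 of 87 cells, and 243 in Wls, of which 238 lay in 6 of 71. Mpo stood at 2706 CPM in those 11 WT cells and at 1117 CPM in the other 76, and in Wls at 4403 CPM in the 6 cells and 848 CPM in the others, so it was not confined to them. Ctsg stood at 763 against 116 CPM in WT and at 1379 against 58.8 CPM in Wls, where the 6 cells held 93 Ctsg UMIs and the other 65 cells 28.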
